A study of Homo sapiens with 9 samples.

Results

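The 10 genes of fibrinogen, serpin and acute-phase proteins, 10 of the 60683 genes in each count table, are described here across human cells kept in oxaliplatin, cells kept in sorafenib and untreated cells. They were taken by gene name, as FGA, FGB, FGG, SERPINA1, SERPINA3, C3, CFB, LCN2, HP and SAA1. They were chosen from their measured levels in these same libraries. Their own differences are therefore given as descriptions without a test. Tests are kept for genes outside the 10. The lists of related genes among them were also chosen with earlier results of these data known. Each of the 3 groups has 3 libraries of messenger RNA, and all groups carry the label HCT 15, a colorectal adenocarcinoma line, with wild-type genotype. Oxaliplatin, a platinum drug that binds DNA, was applied first at 0.5 µM over 7 days, then in steps of 1, 2 and 4 µM from day 10 until day 30. A dose of 4 µM was kept in the medium from then on. Sorafenib, an inhibitor of RAF and receptor tyrosine kinases, was applied in a similar manner to obtain resistant cells, with doses the labels do not give. The untreated cells received neither drug. How many independent selections each resistant population stands for is not given in the labels. The 3 libraries of a group share 1 library code in their titles and nothing says that they came from separate cultures. The p-values below reflect the spread of these libraries alone, and that spread may be technical.

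Acute-phase proteins are plasma proteins whose output by the liver changes during inflammation. Interleukin-6 and related cytokines act through the shared receptor chain gp130 and the factor STAT3. Interleukin-1 and tumour necrosis factor act through NF-kB and C/EBP factors, while HNF1 and other hepatocyte factors give the genes their liver bias. Fibrinogen is assembled from the chains encoded by FGA, FGB and FGG, which lie in a cluster on chromosome 4, and all its chains are needed for a secreted molecule. SERPINA1 and SERPINA3 encode protease inhibitors, alpha-1-antitrypsin and alpha-1-antichymotrypsin. C3 and CFB are complement components. LCN2 is an iron-siderophore carrier made by neutrophils and stressed epithelia, HP binds free haemoglobin, and SAA1 is a serum amyloid apolipoprotein.

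The beta chain gene of fibrinogen was abundant while the other fibrinogen chain genes were at or near 0. The promoter bases of FGB and of FGA are therefore shown side by side for comparison. They come from RefSeq promoter windows (GRCh38.p14), cut where GENCODE v29 exons begin, and are written 5′ to 3′ on each gene's own strand. Capitals mark matches to any of 5 motifs searched on both strands: the HNF1 half-site GTTAAT, the C/EBP core TTGCNNAA, the STAT site TTCNNNGAA, the NF-kB site GGNNNTTCC and the TATA box TATAAA. FGB is on the plus strand at chr4:154562730-154562955 and FGA on the minus strand at chr4:154590767-154590992.
FGB: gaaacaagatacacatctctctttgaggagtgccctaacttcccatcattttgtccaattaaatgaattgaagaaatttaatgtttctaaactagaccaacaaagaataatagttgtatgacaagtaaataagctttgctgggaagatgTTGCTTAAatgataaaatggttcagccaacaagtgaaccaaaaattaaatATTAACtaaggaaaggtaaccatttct
FGA: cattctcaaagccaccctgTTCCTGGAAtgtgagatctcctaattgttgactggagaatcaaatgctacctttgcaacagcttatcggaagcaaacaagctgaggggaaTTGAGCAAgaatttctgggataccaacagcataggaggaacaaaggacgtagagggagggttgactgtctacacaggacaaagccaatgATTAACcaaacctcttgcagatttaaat

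Positions are counted from the RefSeq starts. These lie downstream of the GENCODE exon start in both genes, so the printed bases end before the RefSeq start. Both genes held an HNF1 half-site in the reverse orientation, ATTAAC. RefSeq gives FGB 2 starts, which put this match at -51 to -46 or at -82 to -77, and the match in FGA lay at -52 to -47. Both also held a C/EBP core, at -101 to -94 or -132 to -125 from the starts of FGB and at -141 to -134 in FGA, and FGA alone of the pair held a STAT site, at -231 to -223. A gene without counts and an abundant gene of the cluster shared both the HNF1 and the C/EBP letters in these windows. Over 35116 RefSeq promoters, windows of the same 250 bases held the HNF1 half-site in 6.23%, the C/EBP core in 9.05%, the STAT site in 6.57%, the NF-kB site in 17.1% and the TATA box in 10.7%. Of the 10 genes, 7 had a RefSeq promoter entry, and C3, HP and SAA1 did not. The LCN2 window held a C/EBP core at -143 to -136 and an NF-kB site at -175 to -167, the SERPINA3 window an NF-kB site at -67 to -59 and the FGG window an NF-kB site at -111 to -103. SERPINA1 has 2 RefSeq starts, of which the inner one had an HNF1 half-site at -76 to -71 and the outer one no match. The CFB window held a STAT site at -92 to -84, an NF-kB site that overlapped it at -97 to -89, and a TATA box at -30 to -25. The FGG, CFB and inner SERPINA1 windows lay wholly in GENCODE exons, at 250 of 250 bases, and the LCN2 window lay inside the annotated gene with 74 of its bases in exons. Such matches are letters in a window and no measure of binding.

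Total counts ranged from 15797076 to 20936536 per library, and the 9 pairs of libraries within a group differed by more than sampling noise, at chi-square values per degree of freedom of 18 to 38.1. Levels are in CPM, the count divided by the scaled library total and multiplied up to a common total, with trimmed-mean scaling factors. The 10 genes are ranked by TPM, which also divides by exon length. Marker genes are listed and summed in CPM, which does not allow for length. Where no read was counted, a level of up to 3 counts is still possible, equal to 0.138 to 0.182 CPM depending on the library, for counting error only. The defining markers of the labelled tissue were largely missing. Of 15 colorectal epithelium markers, 14 had a median under 1 CPM and 10 had 0 counts in all 9 libraries, among them CDX1, CDX2, CDH1, KRT20 and CEACAM5. Of 15 renal epithelium markers, 7 had a median of 10 CPM or more, led by PAX8 at 336, HAVCR1 at 173 and AQP1 at 163 CPM. The sample titles of all groups carry the number 769, which the labels do not explain. The cells are accordingly called here by their labelled drug group only.

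Hepatocyte markers were largely missing as well. Of 15 hepatocyte markers, 14 had a median under 1 CPM and APOA2, TTR, APOB, ASGR2 and HNF4A had 0 counts in every library, while ALB never exceeded 2 counts. The exception was CPS1, the first enzyme of the urea cycle, which made up most of the list's summed level of 65.1 to 78.4 CPM in oxaliplatin, 32.1 to 43.1 CPM in sorafenib and 29 to 38.5 CPM in untreated libraries. Of 14 neutrophil and macrophage markers, 12 had a median under 1 CPM and 9, PTPRC among them, were at 0 throughout. Their summed levels were 21.5 to 59 CPM in oxaliplatin, 18.3 to 51.2 CPM in sorafenib and 27.1 to 49.3 CPM in untreated libraries. Most of that sum was CD68, at a median of 27.8 CPM. Of 12 fibroblast and endothelial markers, 10 had a median under 1 CPM. The list summed to 16.9 to 24.7 CPM in oxaliplatin, 4.29 to 4.95 CPM in sorafenib and 11.7 to 49 CPM in untreated libraries, nearly all of it COL1A1 and PDGFRB. The part of CPS1 and of these stromal genes in the results below was not tested.

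Of the 10 genes, 6 passed the filter on low counts, namely FGB, SERPINA1, SERPINA3, C3, LCN2 and SAA1. SAA1 passed only through its level in oxaliplatin. FGA and HP had 0 counts in all 9 libraries, and FGG and CFB had at most 9 and 2 counts in a library. Per exon length the order was FGB with a median of 81.5 TPM over the 9 libraries, SERPINA1 at 9.32, LCN2 at 5.51, C3 at 1.57, SERPINA3 at 1.52, SAA1 at 1.16, FGG at 0.0638 and CFB at 0.0279 TPM. FGB lay above SERPINA1 in every library. SERPINA1 and LCN2 averaged 11.2 ± 1.14 and 9.7 ± 0.528 TPM in oxaliplatin libraries (SD, n = 3), with ranges that met at 10.1 TPM. C3 and SERPINA3 did not separate in sorafenib libraries, at 1.63 ± 0.109 and 1.48 ± 0.184 TPM. In oxaliplatin libraries C3 at 4.59 ± 0.135 and SAA1 at 4.35 ± 1.14 TPM were likewise within their spread, while SERPINA3 stood below both at 1.5 ± 0.706 TPM.

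FGB, the fibrinogen beta chain gene (ENSG00000171564, chr4:154562956-154571086, plus strand, GRCh38 as in all coordinates here), was abundant in all groups and 4.80-fold higher in oxaliplatin than in sorafenib cells. It had 127.6, 120.8 and 177.9 CPM in oxaliplatin libraries 1 to 3, 31.46, 26.68 and 30.71 CPM in sorafenib libraries, and 64.07, 119.1 and 101.8 CPM in untreated libraries. Every oxaliplatin library lay above every untreated one, by the small margin of 120.8 against 119.1 CPM at the nearest pair, and every sorafenib library lay below all the others. The means were 142 ± 31.2 CPM in oxaliplatin, 29.6 ± 2.57 CPM in sorafenib and 95 ± 28.2 CPM in untreated libraries (SD, n = 3 each). The fitted log2 fold change was 0.58 ± 0.22 (SE) for oxaliplatin against untreated, -1.68 ± 0.23 for sorafenib against untreated and 2.26 ± 0.24 for oxaliplatin against sorafenib. Both drug comparisons use the same 3 untreated libraries. Over 17 alternative settings these values ran between 0.36 and 0.77, between -1.90 and -1.49, and between 2.07 and 2.37. In bulk RNA a smaller share of cells that express a gene and less RNA of it per cell cannot be told apart.

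The other fibrinogen chain genes did not share that level. FGA, of the alpha chain (ENSG00000171560, chr4:154583128-154590745, minus strand), lies 12042 bases beyond the end of FGB and had 0 counts in all 9 libraries. FGG, of the gamma chain (ENSG00000171557, chr4:154604134-154612967, minus strand), lies 13389 bases beyond FGA and had 9, 3 and 4 counts in oxaliplatin, 5, 0 and 1 counts in sorafenib and 0, 0 and 2 counts in untreated libraries. FGG reached at most 0.289 TPM, in oxaliplatin 1, where FGB stood at 118.8 TPM. Over the 9 libraries FGB collected 14725 counts, FGG 24 and FGA none. Of the genes for an assembled molecule the alpha chain gene was not detected and the gamma chain gene was barely detected at this depth.

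**Figure D1:**
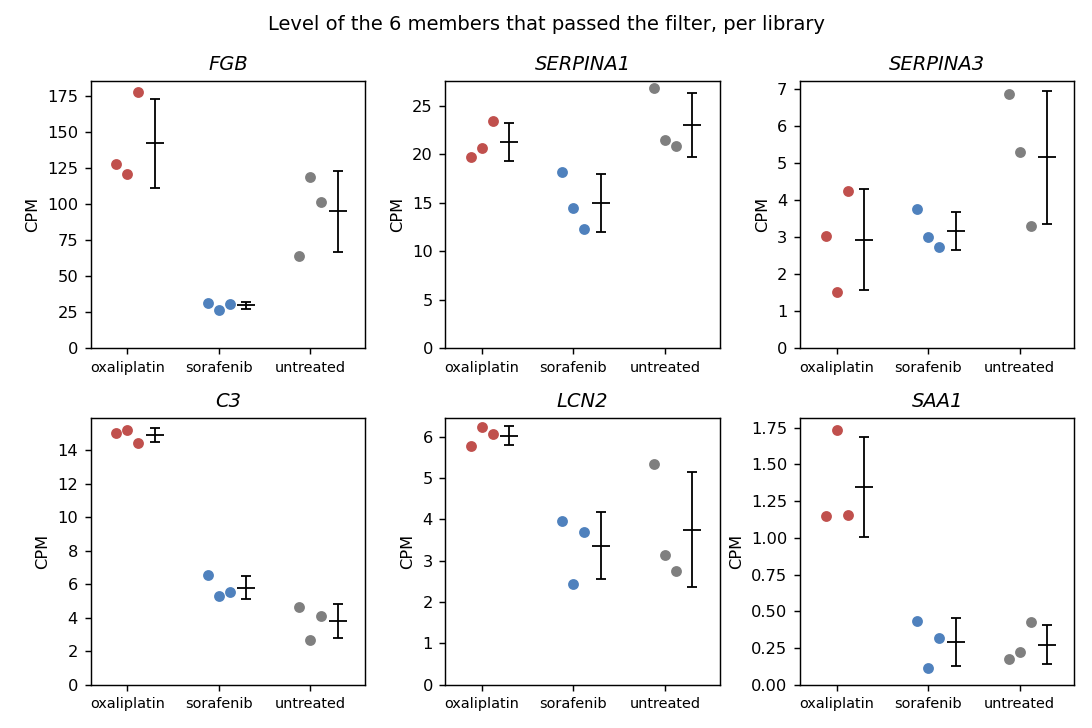
Level in CPM (linear axes from 0) of the 6 genes that passed the filter, one panel per gene, with the oxaliplatin, sorafenib and untreated groups from left to right; points are libraries 1 to 3, and the black mark with its bar is the mean ± SD of 3. FGB stood at 26.68 to 31.46 CPM in sorafenib, below all other libraries, and C3 at 14.4 to 15.2 CPM in oxaliplatin, above all other libraries.

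SERPINA1 (ENSG00000197249, chr14:94376747-94390693), of the main plasma inhibitor of neutrophil elastase, was expressed at moderate level in all groups. It had 19.71, 20.67 and 23.47 CPM in oxaliplatin, 18.15, 14.48 and 12.27 CPM in sorafenib and 26.81, 21.45 and 20.85 CPM in untreated libraries. The sorafenib values lay below all the others, and the oxaliplatin and untreated values overlapped. The log2 fold change was -0.11 ± 0.17 for oxaliplatin against untreated, -0.62 ± 0.17 for sorafenib against untreated and 0.51 ± 0.17 for oxaliplatin against sorafenib.

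SERPINA3 (ENSG00000196136, chr14:94612384-94624055), which encodes an inhibitor of cathepsin G and lies 221691 bases from SERPINA1, showed no separation between any groups. Its levels were 3.03, 1.52 and 4.26 CPM in oxaliplatin, 3.75, 3.01 and 2.73 CPM in sorafenib and 6.86, 5.31 and 3.29 CPM in untreated libraries. The highest values were in untreated 1 and 2, but untreated 3 lay inside the range of both drug groups. The log2 fold changes were -0.81 ± 0.37 for oxaliplatin and -0.70 ± 0.37 for sorafenib, each against untreated, and -0.11 ± 0.38 between oxaliplatin and sorafenib. An unnamed gene model on the same strand, AL049839.2, spans SERPINA3 and took 22 counts in oxaliplatin 2, where SERPINA3 was lowest with 28, against at most 3 counts in any other library. Reads in exons of both models cannot be assigned to one of them, so the low SERPINA3 value of oxaliplatin 2 is uncertain.

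C3 (ENSG00000125730, chr19:6677704-6730562), the central complement component, was 3.92-fold higher in oxaliplatin than in untreated cells. It had 15.03, 15.19 and 14.41 CPM in oxaliplatin, 6.58, 5.28 and 5.52 CPM in sorafenib and 4.64, 2.65 and 4.08 CPM in untreated libraries. The 3 groups did not overlap, and the oxaliplatin libraries lay within 1 CPM of each other. The mean was 14.9 ± 0.414 CPM in oxaliplatin, 5.79 ± 0.689 CPM in sorafenib and 3.79 ± 1.02 CPM in untreated libraries (SD, n = 3 each). The log2 fold changes were 1.97 ± 0.21 for oxaliplatin against untreated, 0.61 ± 0.21 for sorafenib against untreated and 1.36 ± 0.20 for oxaliplatin against sorafenib. The C3 locus overlaps that of GPR108, which averaged 39.9 CPM in oxaliplatin, 42.7 CPM in sorafenib and 40.1 CPM in untreated libraries. Whether the C3 values hold reads of GPR108 was not tested. CFB (ENSG00000243649, chr6:31945650-31952084), whose product joins C3b in the alternative pathway convertase, had 2, 2 and 2 counts in oxaliplatin, 1, 1 and 1 in sorafenib and 2, 0 and 0 in untreated libraries. AL645922.1, a model described in the files as joining C2 and CFB, covers the CFB locus on the same strand and had between 7 and 36 counts per library, or 0.963 to 1.52 CPM in oxaliplatin, 1.08 to 1.93 CPM in sorafenib and 0.371 to 1.41 CPM in untreated libraries. CFB reads shared with that model cannot be told apart, so the CFB counts are uncertain. Some broadly expressed genes around CFB, picked out after their values were seen, were also at or near 0. NEU1, of a lysosomal sialidase, had no count, and NELFE, CLIC1, LSM2 and RNF5 had at most 2, 2, 1 and 4 counts in a library. Other genes of the region were counted, such as ATF6B at 14.8 ± 4.24 CPM in oxaliplatin, 10.8 ± 1.35 CPM in sorafenib and 11.2 ± 1.53 CPM in untreated libraries (SD, n = 3 each). The low counts of CFB are therefore not read as low expression, and what they share with those of its neighbours was not tested.

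LCN2 (ENSG00000148346, chr9:128149071-128153453), of lipocalin-2, had 5.78, 6.24 and 6.08 CPM in oxaliplatin, 3.97, 2.44 and 3.70 CPM in sorafenib and 5.34, 3.15 and 2.76 CPM in untreated libraries. All oxaliplatin values lay above the rest, and the sorafenib and untreated values overlapped. Its log2 fold change was 0.69 ± 0.28 for oxaliplatin against untreated, or 1.03 without untreated 1, -0.15 ± 0.28 for sorafenib against untreated, or 0.19 without untreated 1, and 0.84 ± 0.28 for oxaliplatin against sorafenib. Untreated 1 also had the highest SERPINA1, SERPINA3 and C3 and the lowest FGB of the untreated libraries.

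SAA1 (ENSG00000173432, chr11:18266260-18269977) had 25, 32 and 19 counts in oxaliplatin, 8, 2 and 6 in sorafenib and 3, 4 and 8 in untreated libraries, or 1.15 to 1.74, 0.114 to 0.435 and 0.176 to 0.424 CPM for these groups in that order. The oxaliplatin values lay above the rest, and sorafenib overlapped untreated. The log2 fold change was 2.26 ± 0.49 for oxaliplatin against untreated, 0.08 ± 0.57 for sorafenib against untreated and 2.18 ± 0.48 for oxaliplatin against sorafenib. Because the gene passed the filter only through oxaliplatin, it had to be higher there. Its near-identical copy SAA2, which did not pass, had 9, 4 and 7 counts in oxaliplatin, 3, 0 and 2 in sorafenib and 0, 0 and 1 in untreated libraries. Reads could have been split between the copies, which leaves both counts uncertain. SAA1 also overlaps the gene model RNA5SP334 on the same strand. HP (ENSG00000257017, chr16:72054505-72061055) had no count in any library, and its copy HPR had 1 count in all, in sorafenib 1. The HP locus overlaps that of TXNL4B, which averaged 17.2 CPM in oxaliplatin, 16.3 CPM in sorafenib and 21.25 CPM in untreated libraries. Reads shared with TXNL4B or HPR could have been left out, so the absence of HP counts is uncertain.

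Of the 6 members that passed the filter, 4 lay wholly above the untreated libraries in oxaliplatin, where 24.9% of the 16159 genes tested did, and none lay wholly below, where 23.2% did. The other 2 overlapped. In sorafenib 1 member, C3, lay wholly above the untreated libraries (15.5% of genes tested) and 2, FGB and SERPINA1, wholly below (14.3%). Between the drugs, 5 members lay wholly above sorafenib in oxaliplatin (17.3% of genes tested) and none below (17.6%), SERPINA3 being the exception. These counts restate the values that chose the genes and carry no weight as evidence. They include SAA1, which passed the filter only through oxaliplatin and had to be higher there. These 6 genes did not share 1 pattern. FGB and SERPINA1 were lowest in sorafenib, and FGB was also highest in oxaliplatin. C3, LCN2 and, with that limit, SAA1 were highest in oxaliplatin, and SERPINA3 followed neither.

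**Figure D2:**
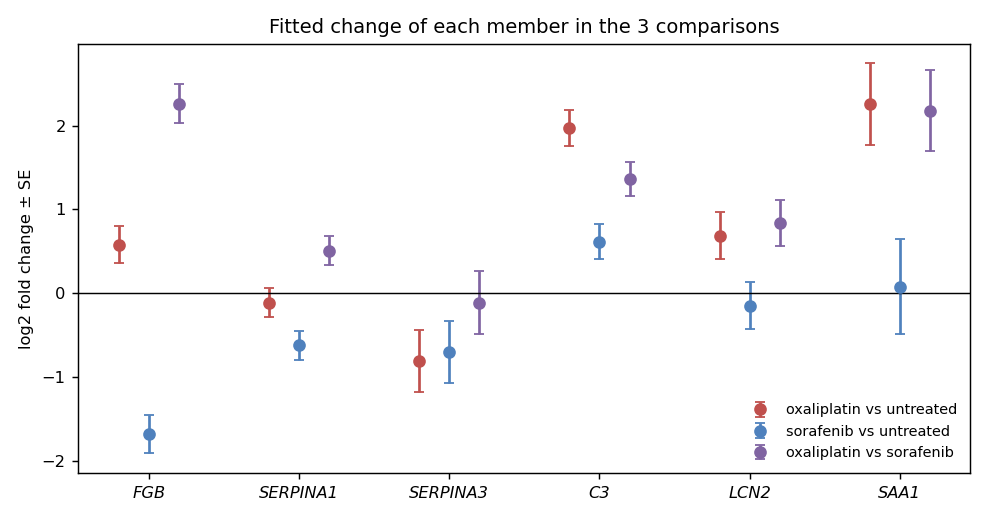
Fitted log2 fold change ± SE (y axis) of the 6 genes that passed the filter, for 3 comparisons from left to right within each gene, namely oxaliplatin against untreated, then sorafenib against untreated, then oxaliplatin against sorafenib. C3 stood at 1.97, 0.61 and 1.36 and FGB at 0.58, -1.68 and 2.26 in these comparisons.

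The genes whose level over the 9 libraries was most like that of FGB, by Pearson's r of log2(CPM + 1) among 11086 genes averaging 5 CPM or more, were EXT1, of heparan sulphate chain synthesis, at 0.986, and the actomyosin genes TAGLN and MYL9, at 0.982 each. TAGLN averaged 10.1 ± 0.553 CPM in oxaliplatin, 0.728 ± 0.29 CPM in sorafenib and 5.81 ± 3.15 CPM in untreated libraries (SD, n = 3 each). Those most like SERPINA1 were CPNE1 at 0.954, and PTOV1 and KPTN at 0.951. The 9 points of each correlation share 3 groups, so the likeness describes these libraries and has no p.

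Genes of the same pathways, which the choice of the 10 did not list, were tested in the fit over all genes with edgeR's quasi-likelihood test and Benjamini-Hochberg adjustment, and a gene is called changed at an adjusted p under 0.05. Of 283 genes in 10 related lists, 152 were tested and 67 had no count at all. The lists were chosen with earlier results of these data known, and how far this shaped the counts below was not tested. In oxaliplatin 31 of the 152 rose and 19 fell against untreated, where 16.2% of all genes tested rose and 15.5% fell. In sorafenib 7 rose and 7 fell, against 2.82% and 1.97% of all genes. Between the drugs 19 were higher and 14 lower in oxaliplatin, against 5.20% and 5.07%. In all, 31.7%, 4.8% and 10.3% of the genes tested were called in these 3 comparisons. The list counts below are read beside these shares. The median log2 fold change of the 152 was 0.0954, 0.0114 and 0.0432 in these 3 comparisons, beside 0.016, 2.53e-05 and -0.00561 over all genes tested. The split between higher and lower depended on scaling: for oxaliplatin against untreated, 51.1% of the calls over all genes were higher. This share was 65.4% with library size alone and 37.6% after a correction for GC content and length that was chosen after the data were seen. Without any 1 library, 28 of the 50 related calls for oxaliplatin, 2 of the 14 for sorafenib and 11 of the 33 between the drugs passed every time. The changes named below are among these unless a loss is given. Strand was not stated for the counting, so values of CFI, C1QBP, AGT, REL, LRG1 and PER1, which overlap another model on the same strand, and of OSMR, LIFR, IL6ST, CEBPB, NR1H3, F8, PLAU, TFPI, GATA6, TSC22D3, PDIA3, P4HB, CALR and LRP1, which overlap one on the opposite strand, can hold reads of the other gene.

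Receptor and transducer genes of the interleukin-6 family were among those that rose in oxaliplatin. Of 24 tested genes of that list, 8 rose and none fell in oxaliplatin against untreated, with a median log2 fold change of 0.49. That is 33.3% called, near the 31.7% of all genes tested, of which 16.2% rose and 15.5% fell. The number of list genes that rose ran from 6, without untreated 3 or oxaliplatin 1, to 11, without untreated 1, when single libraries were left out. Genes that fell then numbered 2 without untreated 1, 3 without oxaliplatin 3 and 1 without sorafenib 1, and under the GC and length correction 10 rose and 2 fell. IL6ST, of the shared chain gp130, had 175.6, 180.5 and 142.6 CPM in oxaliplatin, 76.94, 129 and 99.83 CPM in sorafenib and 78.38, 82.82 and 100.7 CPM in untreated libraries. It rose by a log2 fold change of 0.93 ± 0.19 in oxaliplatin (edgeR adjusted p = 0.00658), with all 3 oxaliplatin values above the others. STAT3, the factor that carries the signal to acute-phase promoters, had 149.6, 150.2 and 149.1 CPM in oxaliplatin, 94.87, 104.6 and 111.2 CPM in sorafenib and 95.16, 77.34 and 83.7 CPM in untreated libraries, a log2 fold change of 0.81 ± 0.11 for oxaliplatin (edgeR adjusted p = 0.00167). All 3 oxaliplatin values of STAT3 lay above the rest. The leukaemia inhibitory factor receptor gene LIFR, by 1.16 ± 0.23, and the kinase gene JAK2, by 0.63 ± 0.14, also rose in oxaliplatin, with edgeR adjusted p-values of 0.00651 and 0.00868. Over the 17 alternatives IL6ST ran from 0.39 to 1.05, STAT3 from 0.63 to 0.92 and LIFR from 0.59 to 1.36. Under the GC and length correction the edgeR adjusted p was 0.0427 for IL6ST, 0.00152 for STAT3, 0.0233 for LIFR and 0.0492 for JAK2.

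OSMR, of the oncostatin M receptor, rose in both drug groups. Its levels were 126.1, 129.3 and 108 CPM in oxaliplatin, 98.02, 126.6 and 121.1 CPM in sorafenib and 59.02, 53.4 and 59.88 CPM in untreated libraries. The log2 fold change was 1.08 ± 0.13 in oxaliplatin and 1.00 ± 0.13 in sorafenib against untreated (edgeR adjusted p = 0.00118 and 0.00444), and the drugs differed by 0.07 ± 0.13 (edgeR adjusted p = 0.749). In sorafenib 2 genes of the list rose and 1 fell, IL11, of a cytokine of the family, by 2.91 ± 0.49 on the log2 scale (edgeR adjusted p = 0.0153). The IL11 call was lost without untreated 3, sorafenib 2 or sorafenib 3, at an edgeR adjusted p of up to 0.0751. SOCS3, the feedback inhibitor of the pathway, was at 18 ± 2.88 CPM in oxaliplatin, 23.2 ± 2.28 CPM in sorafenib and 12.7 ± 2.93 CPM in untreated libraries (SD, n = 3 each). Its log2 fold change was 0.50 ± 0.19 in oxaliplatin (edgeR adjusted p = 0.0672) and 0.87 ± 0.19 in sorafenib (edgeR adjusted p = 0.0354). The call in sorafenib was lost without 6 of the 9 libraries and reached an adjusted p of up to 0.125 without untreated 2. IL6R, the specific receptor chain, had log2 fold changes of 1.68 ± 0.62 in oxaliplatin and 2.42 ± 0.62 in sorafenib that did not pass (edgeR adjusted p = 0.0689 and 0.0612), with 2.74 ± 2.78 CPM in untreated libraries (SD, n = 3). CEBPB at -0.63 ± 0.22 and CEBPD at 0.81 ± 0.31, of the C/EBP factors, did not pass in oxaliplatin either (edgeR adjusted p = 0.0556 and 0.0717).

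Between the drugs, 6 genes of the list were higher in oxaliplatin and none lower, and this count fell to 1 without oxaliplatin 1 or without oxaliplatin 2. Without oxaliplatin 3, 2 were lower, and under the GC and length correction 7 were higher and 1 lower. STAT3 at 0.53 ± 0.11, LIFR at 0.89 ± 0.23 and IL6ST at 0.71 ± 0.19 passed with all libraries (edgeR adjusted p = 0.0158, 0.0377 and 0.0409). These calls were lost without 3, 6 and 5 of the 9 libraries, at an edgeR adjusted p of up to 0.0622, 0.115 and 0.127.

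**Figure D3:**
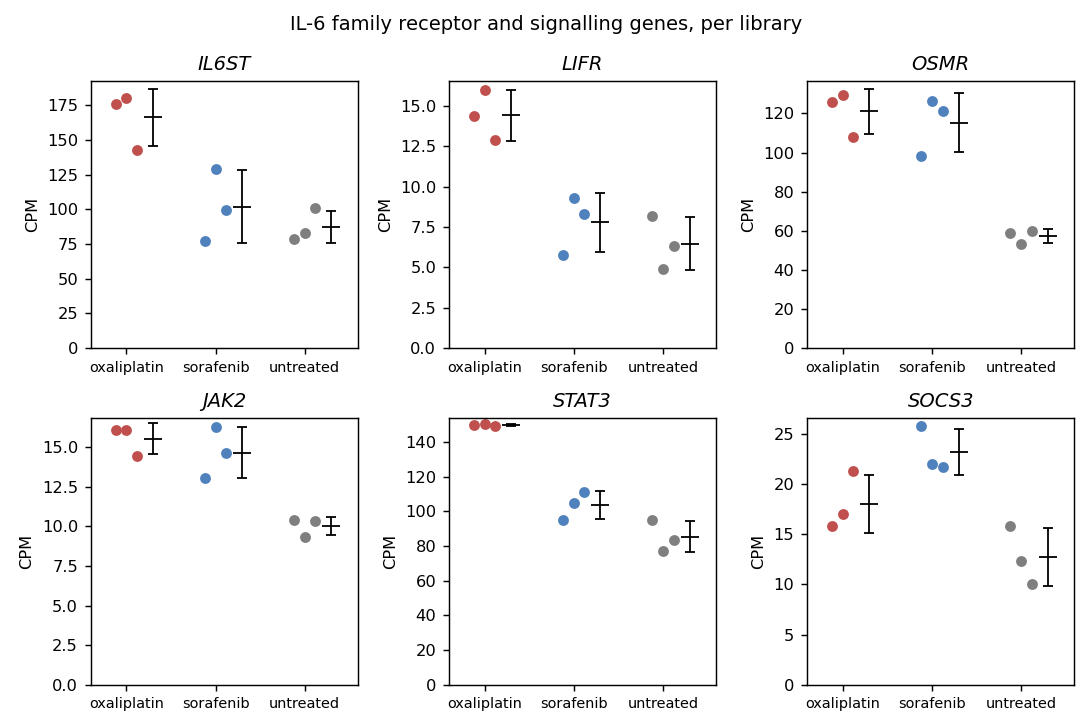
Level in CPM (linear axes from 0) of 6 genes of interleukin-6 family signalling, with the oxaliplatin, sorafenib and untreated groups from left to right; points are libraries 1 to 3, and the black mark with its bar is the mean ± SD of 3. IL6ST, LIFR and STAT3 were above the other groups in all 3 oxaliplatin libraries, and OSMR and JAK2 were above untreated in both drug groups.

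Of the NF-kB list, 6 of 31 tested genes rose and 2 fell in oxaliplatin, 25.8% in all against 31.7% of all genes tested. When single libraries were left out, 1 to 5 rose, with 1 without untreated 2, oxaliplatin 1, oxaliplatin 2 or sorafenib 3. REL, an NF-kB subunit, averaged 13.6 ± 3.05 CPM in oxaliplatin, 8.54 ± 5.99 CPM in sorafenib and 2.71 ± 1.09 CPM in untreated libraries (SD, n = 3 each), which gave 2.32 ± 0.51 for oxaliplatin on the log2 scale (edgeR adjusted p = 0.0106). NFKBIA, of the inhibitor IkB-alpha and itself an NF-kB target, fell by 0.62 ± 0.14 on the log2 scale (edgeR adjusted p = 0.0103). NFKB1 passed at 0.39 ± 0.13 (edgeR adjusted p = 0.0427) but not without untreated 1 or 2 (edgeR adjusted p = 0.104 and 0.117), and leaving out any of 5 other libraries also ended the call. TNIP1, of an inhibitor of NF-kB activation, fell by 0.68 ± 0.18 on the log2 scale (edgeR adjusted p = 0.0173), a call lost without untreated 2, untreated 3 or oxaliplatin 2 at an edgeR adjusted p of up to 0.0661. NFKBIZ, of a nuclear IkB protein known for the induction of LCN2, had a log2 fold change of 1.16 ± 0.49 that did not pass (edgeR adjusted p = 0.104). In sorafenib none of the list rose and 1 fell, NFKBIE, by 0.70 ± 0.12 on the log2 scale (edgeR adjusted p = 0.0169). That call was lost without untreated 2 or 3 or sorafenib 2 or 3, at a p of up to 0.0851. Between the drugs, 4 genes were higher and 1 lower in oxaliplatin. Oxaliplatin exceeded sorafenib in NFKBIE by 0.65 ± 0.12 (edgeR adjusted p = 0.0108). The chemokine gene CCL20 at 1.17 ± 0.28, NFKB1 at 0.53 ± 0.13 and TNIP1 at -0.69 ± 0.18 passed with all libraries (edgeR adjusted p = 0.0287, 0.0292 and 0.0356). They were lost without 5, 6 and 6 of the 9, at an edgeR adjusted p of up to 0.0981, 0.0902 and 0.122.

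Of the 14 tested genes of the hepatocyte-type transcription factor list, 1 rose and 3 fell in oxaliplatin, 28.6% in all, with a median log2 fold change of 0.04. Over all genes tested, 16.2% rose and 15.5% fell. Leaving out single libraries gave 0 to 3 that rose, with 3 without untreated 1, and 1 to 6 that fell, with 1 without oxaliplatin 1 and 6 without oxaliplatin 3. HNF4A had no count in any library. Among those that fell was GATA6, by 0.75 ± 0.12 on the log2 scale (edgeR adjusted p = 0.00288). The gene that rose, ONECUT2, at 0.58 ± 0.19 (edgeR adjusted p = 0.0389), lost its call without each of 6 libraries, at a p of up to 0.132 without untreated 2. The nuclear receptor genes NR1H3 and NR5A2 fell by 0.74 ± 0.18 and 1.24 ± 0.31 on the log2 scale (edgeR adjusted p = 0.0135 and 0.0137). Both were lost without oxaliplatin 1, at an edgeR adjusted p of 0.0605 and 0.0536. In sorafenib 1 of the 14 fell and none rose. NR1H3 fell by 0.75 ± 0.18 (edgeR adjusted p = 0.0471), lost without 8 of the 9 libraries at a p of up to 0.179. GATA6 was also lower in oxaliplatin than in sorafenib, by 0.96 ± 0.12 on the log2 scale (edgeR adjusted p = 0.00133).

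Complement genes other than the members changed in both directions. Of 16 tested genes, 3 rose and 1 fell in oxaliplatin and 2 rose in sorafenib. These were 25% and 12.5% of the list, against 31.7% and 4.8% of all genes tested. Under the GC and length correction 3 rose and 3 fell in oxaliplatin. CFI, of the protease that inactivates C3b, had 43.27, 43.07 and 40.79 CPM in oxaliplatin, 13.8, 13.34 and 17.58 CPM in sorafenib and 20.77, 10.17 and 10.03 CPM in untreated libraries. All oxaliplatin values were higher, by a log2 fold change of 1.64 ± 0.27 against untreated (edgeR adjusted p = 0.00321) and 1.51 ± 0.26 against sorafenib (edgeR adjusted p = 0.00868). CD46, of a membrane cofactor for CFI, rose by 1.36 ± 0.21 in oxaliplatin (edgeR adjusted p = 0.00262). C1QBP, of a mitochondrial protein that can bind C1q, fell by 1.11 ± 0.16 on the log2 scale (edgeR adjusted p = 0.00219). CLU, of the chaperone clusterin, averaged 10.6 ± 0.827 CPM in oxaliplatin, 24.6 ± 3.05 CPM in sorafenib and 8.63 ± 1.39 CPM in untreated libraries (SD, n = 3 each). It rose by 1.51 ± 0.16 in sorafenib (edgeR adjusted p = 0.00191). CD55, of a decay-accelerating membrane protein, was lower in oxaliplatin than in sorafenib by 1.17 ± 0.15 on the log2 scale (edgeR adjusted p = 0.00188). CLU and C1QBP were lower there as well, CLU by 1.21 ± 0.16 (edgeR adjusted p = 0.00225) and C1QBP by 0.89 ± 0.16 (edgeR adjusted p = 0.0101). CD55 rose by 0.80 ± 0.15 in sorafenib against untreated (edgeR adjusted p = 0.0234), a call lost without untreated 2 or sorafenib 3 at an edgeR adjusted p of 0.091 and 0.0955. C1S averaged 1.24 ± 0.36 CPM in oxaliplatin against 0.559 ± 0.175 CPM in untreated libraries (SD, n = 3 each), which is a log2 fold change of 1.15 ± 0.36 (edgeR adjusted p = 0.0345) that was lost without each of 6 libraries, at a p of up to 0.152, and the gene overlaps EMG1. C2 had no count, but it lies beside CFB, where some broadly expressed genes were also at or near 0.

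Genes around fibrin, its formation and its dissolution, changed in both directions in oxaliplatin. Of 17 tested genes, 2 rose and 5 fell in oxaliplatin, with a median log2 fold change of -0.50. That is 41.2% called, against 31.7% of all genes tested. PLAU, of the plasminogen activator urokinase, averaged 114.1 ± 7.12 CPM in oxaliplatin, 242.9 ± 18.9 CPM in sorafenib and 180.7 ± 15.4 CPM in untreated libraries (SD, n = 3 each). It fell by 0.66 ± 0.11 on the log2 scale in oxaliplatin against untreated (edgeR adjusted p = 0.0031) and was lower in oxaliplatin than in sorafenib by 1.09 ± 0.11 (edgeR adjusted p = 0.000447). Its 0.43 ± 0.11 for sorafenib against untreated did not pass (edgeR adjusted p = 0.051). Its receptor gene PLAUR fell by 1.15 ± 0.24, and ANXA2 and S100A10, whose products form a plasminogen receptor, by 0.65 ± 0.10 and 0.82 ± 0.16 on the log2 scale (edgeR adjusted p = 0.00718, 0.00223 and 0.00634). TFPI, of the inhibitor of tissue factor, fell by 0.50 ± 0.10 (edgeR adjusted p = 0.00759). TFPI and PLAUR were also lower in oxaliplatin than in sorafenib, by 0.71 ± 0.11 and 0.89 ± 0.24 on the log2 scale (edgeR adjusted p = 0.004 and 0.043). PLAUR was lost there without 7 of the 9 libraries, at an edgeR adjusted p of up to 0.13. The genes that rose were PROS1, of the anticoagulant protein S, by 1.27 ± 0.20, and F8, of coagulation factor VIII, by 1.20 ± 0.28 (edgeR adjusted p = 0.00294 and 0.0113). F8 had an adjusted p of 0.0621 under the GC and length correction. In sorafenib 1 gene of the list rose, PROS1, by 0.86 ± 0.20 (edgeR adjusted p = 0.0421). That call was lost without each of 8 libraries, at a p of up to 0.154.

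Of 12 other serpin genes tested, none rose and 2 fell in oxaliplatin and 3 fell in sorafenib. These were 16.7% and 25% of the list, against 31.7% and 4.8% of all genes tested. Leaving out single libraries gave 0 to 2 that rose and 0 to 3 that fell in oxaliplatin, and 0 to 4 that fell in sorafenib. SERPINB7 was higher in oxaliplatin than in sorafenib by 2.17 ± 0.30 (edgeR adjusted p = 0.00255), at 2.82 ± 0.835 and 0.623 ± 0.0712 CPM (SD, n = 3 each). Against untreated cells, at 1.83 ± 0.215 CPM (SD, n = 3), it fell by 1.55 ± 0.30 on the log2 scale in sorafenib (edgeR adjusted p = 0.0251), a call lost without untreated 2, untreated 3, sorafenib 2 or sorafenib 3 at an edgeR adjusted p of up to 0.096. SERPINF1, of pigment epithelium-derived factor, averaged 3.46 ± 0.105 CPM in oxaliplatin, 2.52 ± 0.212 CPM in sorafenib and 5.54 ± 0.468 CPM in untreated libraries (SD, n = 3 each). It fell by 0.68 ± 0.17 on the log2 scale in oxaliplatin and by 1.13 ± 0.18 in sorafenib (edgeR adjusted p = 0.0157 and 0.0106). These calls were lost without untreated 2 (edgeR adjusted p = 0.0656 and 0.0536), without oxaliplatin 1 for oxaliplatin (edgeR adjusted p = 0.0591) and without sorafenib 3 for sorafenib (edgeR adjusted p = 0.0523). SERPINB1, of a leukocyte elastase inhibitor, fell by 0.26 ± 0.09 in oxaliplatin and 0.39 ± 0.09 in sorafenib on the log2 scale (edgeR adjusted p = 0.0493 and 0.0421). These calls were lost without 7 and 6 of the 9 libraries, at an edgeR adjusted p of up to 0.154 and 0.173.

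Of 37 other acute-phase and liver-secreted genes, 5 were expressed enough to be tested. AGT, of angiotensinogen, had 2.66, 4.34 and 3.71 CPM in oxaliplatin, 0.543, 0.568 and 0.804 CPM in sorafenib and 1.82, 1.49 and 1.49 CPM in untreated libraries, so the groups did not overlap. It rose by 1.15 ± 0.26 in oxaliplatin against untreated (edgeR adjusted p = 0.0104) and was higher in oxaliplatin than in sorafenib by 2.47 ± 0.29 (edgeR adjusted p = 0.00107). Its log2 fold change of -1.31 ± 0.30 in sorafenib passed with all libraries (edgeR adjusted p = 0.0397) but was lost without each of 8 libraries, at a p of up to 0.154. In all, 2 of the 5 rose in oxaliplatin and none fell, where 16.2% and 15.5% of all genes tested did. The other that rose, ITIH4, at 1.62 ± 0.47 (edgeR adjusted p = 0.0276), was lost without each of 5 libraries, at a p of up to 0.117, and overlaps models on both strands. LRG1, of a leucine-rich plasma glycoprotein, and VNN1, of a pantetheinase, were higher in oxaliplatin than in sorafenib by 1.49 ± 0.30 and 1.05 ± 0.23 (edgeR adjusted p = 0.0142 and 0.0195). LRG1 was lost without oxaliplatin 1 or sorafenib 3, at an edgeR adjusted p of 0.0502 and 0.057, and VNN1 without 5 of the 9 libraries, at up to 0.0798.

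Genes that fold, carry and clear these proteins were read from 3 more lists. Of 20 genes of the secretory quality control list, 4 rose and 2 fell in oxaliplatin and 1 rose in sorafenib. These were 30% and 5% of the list, against 31.7% and 4.8% of all genes tested. The balance in oxaliplatin turned under the GC and length correction, with 1 that rose and 6 that fell, and without oxaliplatin 1 only 2 rose. The number that fell was 4 without sorafenib 1. LMAN1, of a cargo receptor that carries alpha-1-antitrypsin out of the endoplasmic reticulum, rose by 0.53 ± 0.11 in oxaliplatin (edgeR adjusted p = 0.00688), and SEL1L, of the degradation machinery, by 0.74 ± 0.15 (edgeR adjusted p = 0.00582). The disulphide isomerase genes P4HB and PDIA3 fell by 0.62 ± 0.13 and 0.64 ± 0.13 on the log2 scale (edgeR adjusted p = 0.00716 and 0.00723). LMAN1 had an adjusted p of 0.0673 under the GC and length correction. SEL1L was the gene that rose in sorafenib, by 0.88 ± 0.15 (edgeR adjusted p = 0.0134), a call lost without 4 of the 9 libraries at an edgeR adjusted p of up to 0.0694. Between the drugs the chaperone gene CALR was higher in oxaliplatin by 0.64 ± 0.15 and P4HB lower by 0.54 ± 0.13 on the log2 scale (edgeR adjusted p = 0.027 and 0.0275). They were lost without 5 and 4 of the 9 libraries at up to 0.0959 and 0.0973. Of 10 tested genes of the glucocorticoid list, 4 rose and 2 fell in oxaliplatin, and 1 rose in sorafenib. These were 60% and 10% of that list. In oxaliplatin 2 rose without untreated 2, untreated 3, oxaliplatin 1 or oxaliplatin 2, and 2 rose and 3 fell under that correction. NR3C1, of the glucocorticoid receptor, rose by 0.63 ± 0.13 (edgeR adjusted p = 0.00783), with an adjusted p of 0.34 under that correction. NCOA2, of its coactivator, rose by 0.85 ± 0.17 (edgeR adjusted p = 0.00607), and the target gene DUSP1 fell by 1.23 ± 0.17 on the log2 scale (edgeR adjusted p = 0.00168). PER1 fell by 0.70 ± 0.16 (edgeR adjusted p = 0.0115), lost without oxaliplatin 1 at an edgeR adjusted p of 0.0501. KLF9 rose by 1.27 ± 0.25 in sorafenib (edgeR adjusted p = 0.0258), lost without untreated 2, untreated 3, sorafenib 2 or sorafenib 3 at up to 0.107. Between the drugs, DUSP1 at -0.83 ± 0.17, SGK1 at 0.88 ± 0.21, TSC22D3 at 1.08 ± 0.29 and PER1 at -0.61 ± 0.16 passed with all libraries (edgeR adjusted p = 0.0138, 0.0294, 0.0426 and 0.0427). Each was lost without at least 2 of the 9. Of the lipocalin and antimicrobial list, 3 of 21 genes were tested, and 1 rose and 2 fell in oxaliplatin. The one that rose was LRP1, of an endocytic receptor, by 1.72 ± 0.26 (edgeR adjusted p = 0.00278). It was higher than in sorafenib by 1.14 ± 0.26 (edgeR adjusted p = 0.0243), which was lost without 4 of the 9 libraries at up to 0.0824. LRP2, of the lipocalin-binding receptor megalin, averaged 1.21 CPM in oxaliplatin, 7.48 CPM in sorafenib and 3.5 CPM in untreated libraries. It was lower in oxaliplatin than in sorafenib by 2.62 ± 0.51 on the log2 scale (edgeR adjusted p = 0.0147), lost without oxaliplatin 1 or 2 at an edgeR adjusted p of 0.0622 and 0.0644. Against untreated, LRP2 fell by 1.52 ± 0.51 (edgeR adjusted p = 0.0494) and HMOX1, of haem oxygenase 1, by 0.87 ± 0.23 on the log2 scale (edgeR adjusted p = 0.0179). They were lost without 7 and 4 of the 9 libraries at up to 0.141 and 0.0676.

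**Figure D4:**
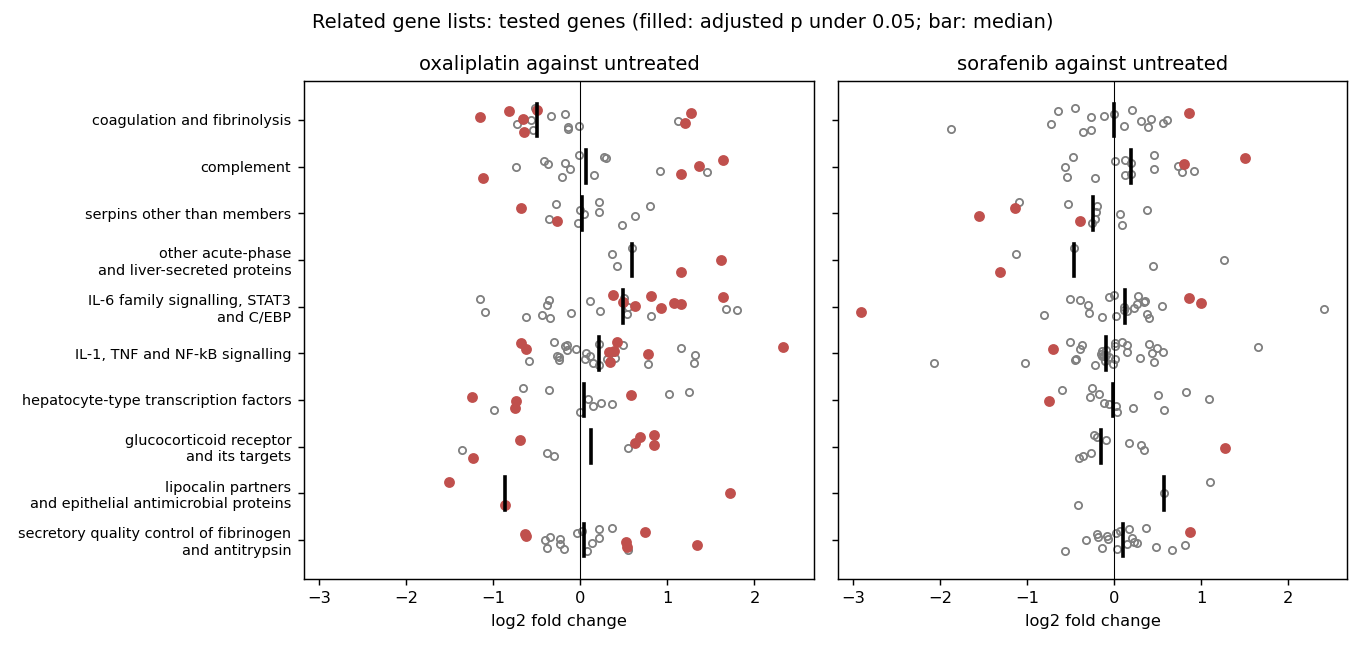
Log2 fold change (x axis) of every tested gene in 10 related lists, for oxaliplatin against untreated on the left and sorafenib against untreated on the right; filled points have an edgeR adjusted p under 0.05, open points do not, and the bar is the median of the list. In oxaliplatin the interleukin-6 list had 8 called genes, all to the right of 0, and the coagulation list had 5 of its 7 to the left.

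The genes beside the members were tested in the same fit. Within 250 kb of the fibrinogen genes lie 14 genes, of which 2 were tested. PLRG1, a splicing gene 12556 bases from FGB, was at 71.3 ± 7.55 CPM in oxaliplatin, 66.8 ± 3.04 CPM in sorafenib and 82.8 ± 8.95 CPM in untreated libraries (SD, n = 3 each) and was called in none of the 3 comparisons. LRAT, of a retinol-esterifying enzyme 13978 bases from FGG, had 7.56, 5.70 and 6.02 CPM in oxaliplatin, 1.90, 3.12 and 2.14 CPM in sorafenib and 2.88, 1.22 and 2.18 CPM in untreated libraries. It rose by 1.62 ± 0.32 in oxaliplatin against untreated (edgeR adjusted p = 0.00577). Its 1.43 ± 0.31 against sorafenib (edgeR adjusted p = 0.0198) was lost without oxaliplatin 1, sorafenib 1 or sorafenib 3 (edgeR adjusted p = 0.0799, 0.077 and 0.0736). Sorafenib and untreated values of LRAT overlapped. Around SERPINA1 and SERPINA3, 5 of 21 neighbours were tested, among them SERPINA5 and SERPINA6, and around CFB 21 of 69. At these loci edgeR and DESeq2 each called 0 neighbours in all 3 comparisons. Over all genes tested, edgeR called 31.7% for oxaliplatin against untreated, 4.8% for sorafenib against untreated and 10.3% between the drugs. Some broadly expressed genes around CFB were counted at or near 0, so the lack of calls there is not read as unchanged expression. AGPAT1 in that region did not pass the filter and averaged 13.5 ± 11.6 CPM in oxaliplatin libraries (SD, n = 3). In sorafenib and untreated libraries it averaged 0.147 ± 0.0345 and 0.15 ± 0.0901 CPM (SD, n = 3 each). The cause of that unevenness was not tested. At an unadjusted edgeR p under 0.05 the counts near the serpins were 1 for oxaliplatin against untreated, 0 for sorafenib against untreated and 1 between the drugs, and those near CFB were 2, 0 and 2.

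Around LCN2, 1 of 23 tested neighbours rose and 7 fell in oxaliplatin against untreated. Over all genes tested, 16.2% rose and 15.5% fell in that comparison. The counts around LCN2, C3, HP and SAA1 were not tested against these shares. Of the LCN2 neighbours that fell, SLC27A4, COQ4, SWI5 and TRUB2 had the smallest p and fell by 0.66 ± 0.12, 0.57 ± 0.11, 0.65 ± 0.13 and 0.52 ± 0.10 on the log2 scale (edgeR adjusted p = 0.00503, 0.00528, 0.00614 and 0.00646). Around C3, 1 of 13 rose, the pseudogene RPL7P50 by 1.28 ± 0.38, and 2 fell, AC010503.5 by 0.98 ± 0.21 and TNFSF9 by 0.64 ± 0.14 on the log2 scale (edgeR adjusted p = 0.03, 0.00777 and 0.00926). RPL7P50 was lost without 4 of the 9 libraries, at an edgeR adjusted p of up to 0.104. TUBB4A, also near C3, was lower in oxaliplatin than in sorafenib by 1.82 ± 0.34 on the log2 scale (edgeR adjusted p = 0.0114). Around HP, ATXN1L and AP1G1 rose by 0.71 ± 0.17 and 0.45 ± 0.14 and DHODH fell by 0.52 ± 0.16 on the log2 scale (edgeR adjusted p = 0.0127, 0.0346 and 0.0286), calls lost without 2, 5 and 4 of the 9 libraries. Around SAA1, SAAL1 fell by 0.54 ± 0.13 on the log2 scale (edgeR adjusted p = 0.0117), and GTF2H1 at 0.50 ± 0.15 and TSG101 at -0.41 ± 0.14 passed with all libraries (edgeR adjusted p = 0.0328 and 0.0463) but not without 4 and 7 of the 9. COQ4 and TRUB2 overlap each other on opposite strands, and ATXN1L, AC010503.5, TUBB4A and TSG101 overlap other models, so their values can hold reads of those genes.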

How the data were processed

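Messenger RNA of 9 libraries, 3 per group, was measured. The deposited values are counts per gene, whole numbers with unequal library totals and hence not normalized by the authors. The submitters' processing notes name featureCounts, DESeq2 and GRCh38, with no role or order. The aligner, annotation release, strand setting and versions are not given in the sources used here. Libraries held 15797076 to 20936536 counts. In R 4.3.3, edgeR 4.0.16 filtered genes (filterByExpr, 16159 left), scaled libraries by TMM factors of 0.944 to 1.05 and fitted all 9 libraries together by robust quasi-likelihood, each group having its own coefficient (common biological coefficient of variation 0.224). The 3 contrasts were tested 2-sidedly with Benjamini-Hochberg adjustment over all genes tested, at 0.05. A standard error is the log2 fold change over the square root of F. TPM used GENCODE v29 exon lengths for 58496 of 60683 gene IDs, and neighbours lay within 250 kb. The procedure was tested on simulated data.

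Members and related lists were chosen with earlier results of these data known. Named genes were the members, up to 4 called genes per list and comparison with the smallest p and a mean of at least 1 CPM, a fixed set, called neighbours, and the 3 genes most like FGB and SERPINA1. JAK2, and in oxaliplatin against untreated PLAUR, TFPI and F8, were named after their values were seen. Some genes named by this rule are not reported here. Likeness was to use all fibrinogen chains, but FGA and FGG did not pass the filter, so FGB stands alone. Alternatives were RLE factors, library size only, DESeq2 1.42.0, no filter, keeping genes that average 1 CPM, fitting only the 2 groups compared, a replicate block, leaving out each of the 9 libraries, and, chosen after seeing the data, a loess correction (span 0.5) for GC content and transcript length, with values for 99.05% of tested genes.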

Additional observations from a re-analysis of the deposited data

How the results depend on the processing

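Under 17 alternatives, 290 of 302 fold changes of members moved by less than 1 SD of the replicates, 12 moved by more and none with a separation of its groups turned its direction. The 12 were LCN2 and SAA1 with 1 library left out. SAA1 ran from 2.03 to 2.71 for oxaliplatin against untreated. Among members whose groups overlapped, the sign turned for SAA1 and LCN2 in sorafenib against untreated (-0.323 to 0.534 and -0.331 to 0.191), SERPINA1 in oxaliplatin against untreated (-0.186 to 0.00758) and SERPINA3 between the drugs (-0.462 to 0.196). Of 3720 values of other named genes, 3279 kept their side of the threshold, 349 lost their call, 91 gained one and 1 reversed: ONECUT2 in oxaliplatin against untreated, to -0.115 under the correction for GC content and length.

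The 775 calls over all genes for sorafenib against untreated became 1805 with DESeq2, 311 with 2 groups only and 1168 with that correction, and the 14 related calls became 28 with DESeq2 and 8 with 2 groups only. Of the 1168, 502 were higher and 666 lower, against 456 and 319. Higher calls between oxaliplatin and sorafenib were 50.6%, or 64.2% with library size alone, and 45.3% of related calls for oxaliplatin were higher under the correction, against 62%. Library size alone moved the median of all genes in oxaliplatin against untreated to 0.131 from 0.016. Leaving out single libraries gave 2913 to 5403 calls for oxaliplatin (30 to 63 related), 113 to 1743 for sorafenib (2 to 27 related) and 572 to 1949 between the drugs (13 to 44 related), lowest without oxaliplatin 1 for oxaliplatin and between the drugs, and without sorafenib 3 for sorafenib. The cause was not tested.

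Replicate numbers did not pair libraries: correlations of same-numbered deviations ran from -0.145 to 0.0636, 0 of 9 above 0.1, and 0 libraries correlated best with their own number in both other groups. Some differently numbered libraries correlated more, untreated 2 with sorafenib 1 at 0.201 and oxaliplatin 3 with sorafenib 1 at 0.199. A grouping of libraries other than by number was not tested. With the replicate block, calls were 184 for sorafenib (4 related) and 809 between the drugs (17 related). Counts of FGA, FGG, CFB and HP were at or near the floor of 3, which limits their precision. For CFB, some broadly expressed neighbours were as low.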
